A study of Mus musculus with 50 samples.

Results

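The response of hippocampal microglia to lipopolysaccharide (LPS) was examined in adult control mice, those that had not gone through early-life stress (ELS). The members are the 7 mice whose labels give P200 (postnatal day 200), control rearing (CTR) and LPS, and the 7 mice with P200, CTR and PBS, 14 of the 50 mice sequenced. All were male C57BL/6J mice, and each received 1 intraperitoneal injection of PBS or of 1 mg/kg LPS from E. coli O111:B4, 3 h before the tissue was taken. After perfusion with saline, both hippocampi of a mouse were dissociated mechanically, myelin was removed on Percoll, and single viable CD45int CD11b+ cells were sorted and sequenced as 1 poly-A RNA library per mouse. The 14 mice came from 5 nests, and each nest held both treatments. In a mouse's number, the part before the point is the nest, so that mouse 1.1 is mouse 1 of nest 1. The other 36 mice were pups of P9 and ELS-reared adults, of which 11 adults are used for 1 comparison at the end.

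Microglia are the resident macrophages of the brain and are held in a homeostatic state by signals such as CSF1 and TGF-β. LPS, a component of the outer membrane of Gram-negative bacteria, is bound by CD14 and the TLR4-MD-2 complex, and the adaptors MyD88 and TRIF pass the signal to NF-κB, to the MAP kinases with the AP-1 factors, and to interferon regulatory factors. These factors switch on cytokines and chemokines together with the inhibitors that end the response, such as IκBα, A20, SOCS proteins and the dual-specificity phosphatases. In these bulk samples, fewer cells of a type and less RNA per cell cannot be told apart.

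Libraries held 13996535 to 28616316 counts in CTR-PBS and 13900212 to 42231258 in CTR-LPS, and these totals did not differ between the groups beyond the spread between mice (two-sided exact permutation test, p = 0.867, n = 7 and 7). The 50 most abundant genes of a library took 30.5 to 32.6% of counts in CTR-PBS and 28.9 to 32.1% in CTR-LPS (exact permutation test, p = 0.0373, and 0.186 adjusted over 5 library measures). One CTR-PBS mouse, 1.1, stood apart, with a count above 0 for 12854 genes against 17424 to 19727 in the other 6, and leading results are given with and without it. Among the CTR-LPS mice, mouse 5.3 had 1.17% of its counts in mitochondrial genes, against 0.6117 to 0.7101% in the other 6. Levels below are in CPM, counts expressed relative to library sizes scaled by TMM, and 3 values for a group are those of its lowest, median and highest mouse. A gene was called when edgeR's quasi-likelihood test gave an adjusted p under 0.05 and the log2 fold change of LPS against PBS was above 1 or below -1. All values after ± are standard errors of the log2 fold change unless stated otherwise.

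Of 16696 genes tested, 1005 rose after LPS (6.02%) and 601 fell (3.6%). Without mouse 1.1, 907 of 16657 rose (5.45%) and 563 fell (3.38%), and of the genes called in all 14 mice, 861 (85.7%) and 470 (78.2%) were called again. The median log2 fold change was 2.36 among called higher genes, -1.94 among called lower genes and 0.00 over all genes tested. A log2 fold change above 3 was reached by 399 called genes and one below -3 by 159. In 616 of the 1005 genes every CTR-LPS mouse was above every CTR-PBS mouse, and in 234 of the 601 every CTR-LPS mouse was below. Over all genes tested the groups did not overlap in 4.92% with LPS higher and in 2.56% with LPS lower. The gene lists described next were read against these shares. Without mouse 1.1, their counts of called genes in either direction moved by at most 1, except for purinergic receptors (2 higher instead of 4), glycosaminoglycan synthesis (2 lower instead of 4), autophagy and the study's own list of lower genes, given below. Protein-coding genes made up 81.0% of the annotated genes called higher, 63.7% of those called lower and 78.9% of those tested.

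**Figure D1:**
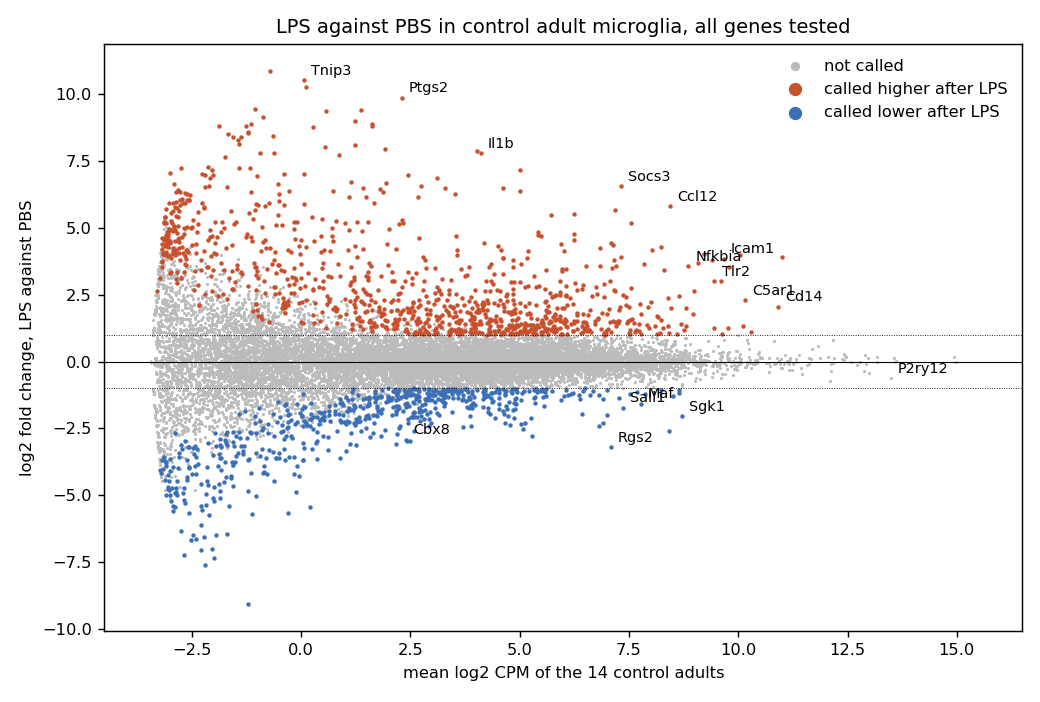
Log2 fold change of LPS against PBS (vertical axis) against the mean log2 CPM of the 14 control adults (horizontal axis), with 1 point per gene tested and called genes in colour. The 1005 called higher genes reach log2 fold changes above 10, while abundant microglial genes such as P2ry12 lie between the dotted lines at 1 and -1.

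κB sites are the short DNA sequences that NF-κB dimers bind. The start regions of 4 strongly rising genes are shown because each holds a match to the κB consensus. They are the 4 largest log2 fold changes among called genes of the inhibitor, NF-κB, cytokine and chemokine lists with such a match. Tnip3 encodes a binding partner of the NF-κB inhibitor A20, Cxcl2 a neutrophil-attracting chemokine, Bcl3 a nuclear IκB protein and Cxcl10 an interferon-inducible chemokine. Each stretch runs 5′ to 3′ in the direction of the gene, from 170 bases before the start site to 12 bases after it, with the κB matches in capitals. The sequences come from the RefSeq promoter table (GRCm38.p6), and each was found once on its chromosome in GRCm39. They lie at chr6:65567212-65567393 on the + strand (Tnip3), chr5:91051588-91051769 on the + strand (Cxcl2), chr7:19556669-19556850 on the - strand (Bcl3) and chr5:92496737-92496918 on the - strand (Cxcl10). The Tnip3 stretch lies inside the gene as GENCODE gives it, chr6:65502295-65611024.
Tnip3: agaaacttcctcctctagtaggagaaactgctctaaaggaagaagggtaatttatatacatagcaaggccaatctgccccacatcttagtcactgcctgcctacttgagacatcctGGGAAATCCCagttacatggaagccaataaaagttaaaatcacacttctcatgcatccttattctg
Cxcl2: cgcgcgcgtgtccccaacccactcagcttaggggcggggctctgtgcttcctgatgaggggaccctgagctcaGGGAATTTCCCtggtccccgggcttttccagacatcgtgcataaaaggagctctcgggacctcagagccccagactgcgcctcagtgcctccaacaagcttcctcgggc
Bcl3: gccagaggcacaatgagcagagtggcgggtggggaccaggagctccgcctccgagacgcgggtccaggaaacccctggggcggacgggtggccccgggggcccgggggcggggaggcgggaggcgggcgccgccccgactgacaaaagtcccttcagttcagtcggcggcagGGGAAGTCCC
Cxcl10: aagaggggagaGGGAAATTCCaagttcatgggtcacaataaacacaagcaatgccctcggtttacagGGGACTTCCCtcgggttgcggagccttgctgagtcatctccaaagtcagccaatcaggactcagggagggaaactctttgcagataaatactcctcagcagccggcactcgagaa
The match begins 54 bases before the start site in Tnip3, 97 bases before it in Cxcl2 and 159 and 103 bases before it in Cxcl10, and 2 bases after it in Bcl3.

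Promoters of 300 bases (250 before to 50 after the start) were held by the table for 719 of the 1005 genes called higher, 374 of the 601 called lower and 11284 genes tested. The κB consensus, searched on both strands, was found in 12.2% of the promoters of called higher genes, 4.55% of called lower genes, 6.23% of genes tested and 5.14% of all 27025 genes in the table. The looser form of GGG and TCC with any 4 bases between, which overlaps it, was found in 34.6, 28.9, 26.9 and 21.3%. The AP-1 motif TGACTCA was found in 8.34, 3.21, 4.52 and 5.95%, the interferon response motif, GAAA repeated after any 2 bases, in 5.84, 2.14, 3.73 and 3.99%, and the cyclic AMP response motif TGACGT in 15.3, 13.6, 12.9 and 8.37%. The glucocorticoid response motif, AGAACA and TGT with any 3 bases between, was in 0.695, 0.535, 0.337 and 0.481%. By list, the κB consensus was in the promoters of 6 of 7 called genes of the NF-κB system, 4 of 8 chemokines, 5 of 11 AP-1 and immediate early genes, 2 of 4 interferon-stimulated genes, 3 of 15 feedback inhibitors and 1 of 5 secreted cytokines with a promoter. It was in none of the 8 called glucocorticoid targets with a promoter. A match describes letters in this window and is not a measured binding site.

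The 12 largest increases among called genes without overlap and with at least 5 CPM on average after LPS were Adamts4, Tnip3, Ccr7, Ptgs2, Il12b, Trem1, Ehd1, Il1rn, Rnd1, Gpr132, Bcl3 and Sphk1, with log2 fold changes from 10.87 to 8.00. In CTR-PBS the median mouse was at or near 0 for each of them. Ptgs2, which encodes the prostaglandin-forming enzyme COX-2 (chr1:149975194-149983978, GRCm39), was at 0, 0 and 1.15 CPM in CTR-PBS and at 41.5, 214 and 329.7 CPM in CTR-LPS. Il1rn, the interleukin-1 receptor antagonist (chr2:24226865-24241506), was at 0, 0 and 1.13 against 7.22, 90.1 and 169.6 CPM. Il12b, the p40 subunit of interleukin-12 and interleukin-23 (chr11:44290808-44305505), was at 0, 0 and 0.389 against 17.5, 51.07 and 96.3 CPM. The groups did not overlap in any of these 3 genes, but the CTR-LPS mice differed from each other by several fold.

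Adamts4, a protease of the extracellular matrix (chr1:171077986-171089841), had no count in any CTR-PBS mouse and 0.0900, 4.29 and 47.5 CPM in CTR-LPS. Its mean after LPS was at least 546-fold higher than the level that 3 counts over the CTR-PBS group would give, and mouse 8.2 alone supplied the highest value. Tnip3 and Ccr7, the receptor that guides cells to lymph nodes (chr11:99035022-99045911), each had 1 read in the whole CTR-PBS group. The pooled ratio was 2968 for Tnip3 (95% exact interval from counting alone 532 to 117275) and 2406 for Ccr7 (431 to 95066). In all, 92 called higher genes had no count in any CTR-PBS mouse, and 31 called lower genes had none in any CTR-LPS mouse. The CTR-PBS reads of these genes came from few mice, and the fitted log2 fold change moved when 1 mouse was left out. Without CTR-PBS mouse 5.2 it was 12.71 for Il1rn, 11.82 for Trem1, 11.37 for Ccr7, 11.35 for Il12b, 10.78 for Ehd1, 10.22 for Gpr132, 8.87 for Sphk1 and 8.81 for Bcl3. It was 13.11 for Ptgs2 without CTR-PBS mouse 5.1, 11.66 for Tnip3 and 8.61 for Sphk1 without CTR-PBS mouse 1 of nest 15, and 9.71 for Adamts4 without CTR-LPS mouse 8.2. All 12 calls held in each of these fits, but Il1rn was not called by limma-voom with the nest as a random effect (adjusted p = 0.0728).

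Trem1, which amplifies inflammatory signals in myeloid cells (chr17:48539784-48553952), was at 9.58, 22.6 and 26.5 CPM after LPS. Ehd1, a regulator of endosomal recycling (chr19:6326675-6352060), reached 18.0, 27.2 and 136 CPM, and Rnd1, a small GTPase (chr15:98561114-98575348), 19.31, 64.8 and 121 CPM. Gpr132, a G protein-coupled receptor (chr12:112814493-112831848), was at 3.22, 19.32 and 33.3 CPM and Sphk1, which makes sphingosine-1-phosphate (chr11:116421751-116427501), at 6.05, 16.8 and 41.3 CPM. No CTR-PBS mouse exceeded 0.467 CPM in any of these 5 genes. Among the 12 genes, the CTR-LPS mice spanned the widest ranges in CPM in Ptgs2, Il1rn and Ehd1, with the highest value of Ehd1 in mouse 8.2.

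**Figure D2:**
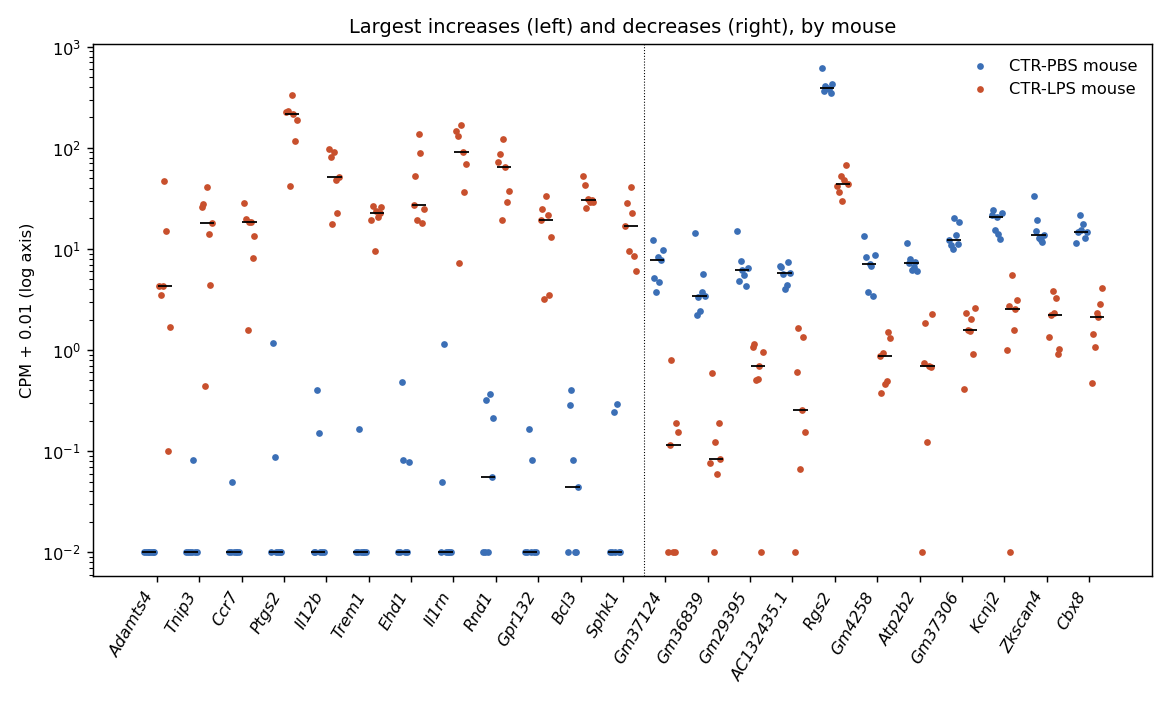
CPM plus 0.01 on a log axis for the 12 largest increases and the decreases named in the text, with 1 point per mouse and the median as a line. CTR-PBS mice of the 12 rising genes lie at or near 0, and Rgs2, among the decreases, moves from a median of 394 CPM in CTR-PBS to 43.7 CPM in CTR-LPS.

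Among 29 genes of LPS sensing and its adaptors, 8 rose and none fell, with a median log2 fold change of 0.22. The co-receptor Cd14 was at 882, 942 and 1057 CPM in CTR-PBS and at 1931, 3960.3 and 5271 CPM in CTR-LPS (log2 fold change 2.04 ± 0.18). Tlr2, the receptor for bacterial lipoproteins, was at 217, 244 and 308 against 1054, 1988 and 3134 CPM (2.99 ± 0.26). The adaptor Myd88 was at 99.2, 112 and 165 against 249.9, 417 and 602 CPM (1.78 ± 0.23). In these 3 genes every CTR-LPS mouse was above every CTR-PBS mouse. The LPS receptor itself, Tlr4, was at 260.0, 387 and 469.7 CPM in CTR-PBS and at 127, 190.1 and 269 CPM in CTR-LPS, with a log2 fold change of -0.96 ± 0.23 and an adjusted p of 0.00198. It was not called because the change stayed above -1, and it would be called without CTR-LPS mouse 5.3 (-1.06) or without CTR-PBS mouse 1 of nest 15 (-1.03). The partner of Tlr2, Tlr6, was called with 1.02 and not without CTR-PBS mouse 1.1 (0.93) or CTR-LPS mouse 3 of nest 18 (0.98).

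Genes for NF-κB inhibitors and for some of its subunits rose. Of 16 genes of the NF-κB system, 9 rose and none fell (median log2 fold change 1.61). Nfkbia, which encodes IκBα, the inhibitor that retains NF-κB in the cytoplasm, was at 104, 125 and 195 CPM in CTR-PBS and 1169.5, 1712 and 2152 CPM in CTR-LPS (3.56 ± 0.19, adjusted p = 6.65e-21). Nfkbiz, a nuclear IκB protein needed for secondary response genes, was at 5.92, 9.77 and 13.6 against 63.9, 104 and 234 CPM (3.63 ± 0.42), and Nfkbie, which encodes IκBε, at 33.7, 40.9 and 62.3 against 79.6, 146 and 269.9 CPM (1.75 ± 0.24). The subunits Relb (3.52 ± 0.49), Nfkb2 (2.96 ± 0.43) and Rel (1.43 ± 0.23) also rose. Levels of Rela, which encodes p65, and Nfkb1 differed by 0.74 and 0.55 on the log2 scale and were not called.

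Among inhibitors of the response, 16 of 23 genes rose and 1 fell, with a median log2 fold change of 2.47. Socs3, an inhibitor of JAK-STAT signalling, was at 6.13, 19.6 and 34.3 CPM in CTR-PBS and at 613, 1292 and 4556 CPM in CTR-LPS (6.55 ± 0.56). Dusp1, a phosphatase that inactivates p38 and JNK, was at 0.305, 2.77 and 10.8 against 224, 583 and 712 CPM (7.16 ± 0.59, and 7.85 without CTR-PBS mouse 5.2). Zfp36, which encodes tristetraprolin and destabilizes cytokine mRNA, was at 198, 256 and 332 against 2316, 3141 and 4110.1 CPM (3.54 ± 0.26). All CTR-LPS mice were above all CTR-PBS mice in these 3 genes. Tnfaip3, which encodes the ubiquitin-editing enzyme A20, rose by 3.57 ± 0.47 and Socs2 from at most 0.584 CPM to 27.9, 59.97 and 86.7 CPM. The exception was Zfp36l2, a relative of Zfp36, which fell from 43.3, 56.3 and 63.9 to 7.71, 17.34 and 24.3 CPM (-1.76 ± 0.25) without overlap. Atf3, a repressor of TLR targets, was at 23.4, 41.8 and 66.1 against 19.12, 22.7 and 37.6 CPM and was not called (-0.74 ± 0.28, adjusted p = 0.0651). Il10 was below the filter on low counts.

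Of 18 immediate early and AP-1 genes tested, 15 rose and none fell, with a median log2 fold change of 3.39. Egr1, a zinc finger factor, was at 3.47, 11.54 and 21.2 CPM in CTR-PBS and at 402, 544 and 720.4 CPM in CTR-LPS (5.51 ± 0.46). Ier2 was at 8.96, 38.7 and 64.6 against 979, 1287 and 1381 CPM (5.19 ± 0.41) and Ier3, which protects against apoptosis, at 2.64, 7.94 and 17.8 against 247, 403 and 631 CPM (5.48 ± 0.42). The groups were far apart in all 3. Among AP-1 subunits, Junb was at 151, 195 and 259 against 815, 2631 and 5363 CPM (3.79 ± 0.38), Jun rose by 2.06 ± 0.27 and Batf by 2.98 ± 0.26. Fos was at 0, 0.751 and 4.81 CPM in CTR-PBS and 133, 138 and 193 CPM in CTR-LPS. Its groups did not overlap either, and Egr3, Batf2 and Nr4a2 were the genes not called.

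Among 17 secreted cytokines tested, 8 rose and 1 fell, with a median of 1.29. Il1b was at 0, 1.51 and 4.61 CPM in CTR-PBS and at 66.4, 392 and 668 CPM in CTR-LPS (7.80 ± 0.71), and Il1a, its relative, already at 102, 158 and 181 CPM in CTR-PBS and at 937, 1896 and 2684 CPM after LPS (3.69 ± 0.28). Tnf was at 0.662, 2.56 and 5.81 against 134, 225 and 433 CPM (6.504 ± 0.60). Tnfsf9, the 4-1BB ligand, was at 1.09, 3.81 and 6.97 against 104, 319 and 534 CPM (6.38 ± 0.50). The groups did not overlap in these 4 genes. Il6 was at 11.09, 18.8 and 22.3 CPM in CTR-PBS and at 28.4, 41.8 and 62.8 CPM in CTR-LPS, without overlap, but did not pass the test (1.29 ± 0.58, adjusted p = 0.133). In a fit on the 14 control adults alone it was called at 1.29 (adjusted p = 0.000123), as it was in 4 other fits on adult mice. The growth factor Igf1 was called lower (-3.19 ± 0.96) at 0, 0.142 and 0.740 CPM in CTR-PBS and 0, 0 and 0.113 CPM in CTR-LPS, and the call was lost without CTR-PBS mouse 5.2 (-2.50) or CTR-LPS mouse 1.3 (-2.83) and was -4.16 without CTR-LPS mouse 8.2. Il12a, Il23a, Csf2, Csf3, Lif, Lta and Ifnb1 were below the filter on low counts.

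Of 18 chemokines tested, 14 rose and none fell, with a median log2 fold change of 4.07. Ccl12, an attractant for CCR2-bearing monocytes, was at 32.1, 48.5 and 86.1 CPM in CTR-PBS and at 616, 2789 and 4719 CPM in CTR-LPS (5.81 ± 0.39, adjusted p = 5.97e-17). Its neighbours Ccl2 and Ccl7 were at 8.93, 14.3 and 19.13 against 171, 278 and 372 CPM (4.39 ± 0.35) and at 0.570, 1.67 and 4.58 against 14.3, 26.8 and 43.9 CPM (3.90 ± 0.49). Ccl2 and Ccl12 are similar in sequence, so that reads shared by both may not have been counted. Cxcl10, which attracts T cells, was at 0, 0.239 and 6.07 against 158, 453 and 784 CPM (7.89 ± 0.73, and 8.61 without CTR-PBS mouse 5.2). Ccl4, a macrophage inflammatory protein, was at 93.4, 233 and 339 against 583, 1318 and 2192 CPM (2.64 ± 0.35). Cxcl2 had no count in CTR-PBS and 0.405, 1.60 and 7.03 CPM in CTR-LPS, at least 129-fold higher by mean. Cxcl3 and Cxcl5, which also attract neutrophils, were below the filter on low counts.

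Of 9 receptors for chemoattractants 4 rose (median 0.77) and of 23 receptors for cytokines 4 rose (median 0.24), and none fell. The complement receptor C5ar1 was at 436, 492 and 661 CPM in CTR-PBS and 1701, 2544 and 3236 CPM in CTR-LPS (2.30 ± 0.18), and Ccrl2, a chemerin-binding receptor, at 28.7, 30.4 and 40.5 against 111, 220.0 and 271 CPM (2.69 ± 0.29). Cx3cr1, the fractalkine receptor of microglia, was at 7949, 9733 and 10672 against 4859, 7088 and 8623 CPM with overlap and was not called (-0.45 ± 0.20, adjusted p = 0.124). Il4ra, the receptor of interleukins 4 and 13, was at 66.6, 123 and 155 against 370.1, 625 and 3494 CPM (3.43 ± 0.46). Il2rg, the common γ chain, was at 0.763, 4.00 and 5.59 against 10.8, 25.4 and 30.6 CPM (2.62 ± 0.28). The receptor of CSF1, Csf1r, had overlapping levels of 5758, 7949 and 9965 against 4374, 7403 and 14239 CPM (0.12 ± 0.29).

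**Figure D3:**
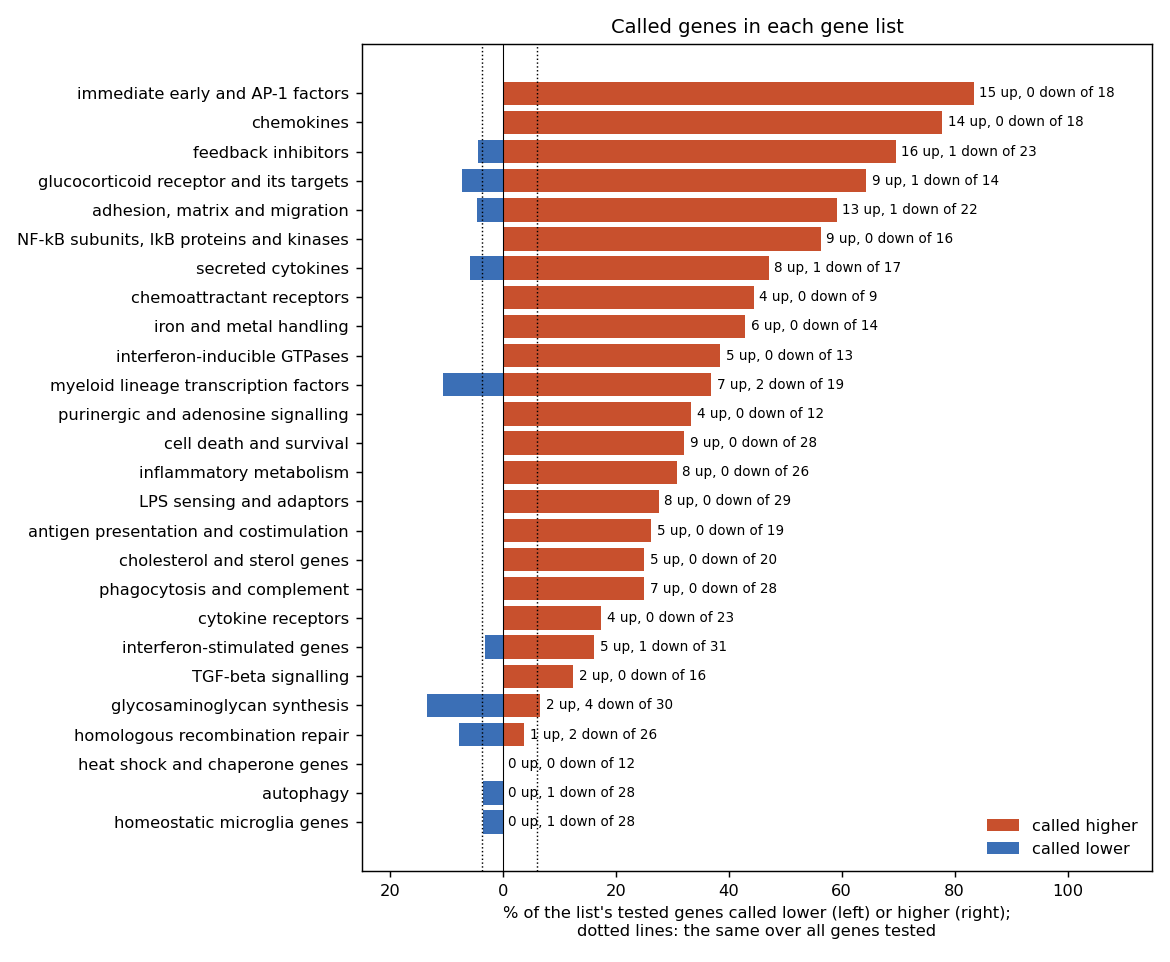
Share of tested genes in each list, without the marker lists and the lists taken from the study, that were called higher (to the right) or lower (to the left) after LPS, with the counts beside the bars. Dotted lines mark the shares over all genes tested, 6.02% higher and 3.6% lower, and the AP-1 and immediate early genes (15 of 18) and chemokines (14 of 18) lie farthest from them among the lists drawn.

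Interferon-stimulated genes rose in a minority, with 5 of 31 higher, 1 lower and a median of 0.59. Irf1, a factor that NF-κB and interferon both induce, was at 24.5, 48.0 and 66.3 CPM in CTR-PBS and 171, 244 and 456 CPM in CTR-LPS (2.51 ± 0.24), and Stat2, a subunit of the interferon-activated ISGF3 complex, at 0.0509, 13.5 and 26.1 against 47.9, 61.2 and 134 CPM (2.16 ± 0.43). Ifit1 and Isg15, antiviral effectors, did not overlap between the groups but were not called, with log2 fold changes of 1.94 ± 0.75 and 0.88 ± 0.35 and adjusted p of 0.0722 and 0.0884. On the 14 control adults alone Ifit1 was called (1.94, adjusted p = 0.0261). Trim30a (1.06) and Parp14 (1.03) lay just past the threshold, and both fell short of it without CTR-LPS mouse 1.2 (0.98 and 0.98). Parp14 also did without CTR-LPS mouse 1.3 (0.91), CTR-LPS mouse 8.2 (0.96) or CTR-PBS mouse 5.2 (0.93). Trim21 was the gene called lower, and its -1.68 ± 0.57 became -0.81 (adjusted p = 0.373) without CTR-PBS mouse 1.1, and the call was also lost without any 1 of 6 CTR-LPS mice. Of the 13 interferon-inducible GTPases, which attack intracellular pathogens and form a family of similar genes, 5 rose (median 1.16). Gbp5 was at 0, 9.097 and 14.1 against 32.6, 168 and 269.8 CPM (4.16 ± 0.63) and Gbp3 at 13.6, 19.5 and 38.5 against 39.3, 61.4 and 77.5 CPM (1.46 ± 0.21).

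Of 19 genes of antigen presentation and co-stimulation, 5 rose and none fell (median 0.11). The co-stimulatory receptor Cd40 was at 0, 0.0713 and 1.75 CPM in CTR-PBS and 8.44, 55.7 and 84.0 CPM in CTR-LPS (6.47 ± 0.94, and 7.22 without CTR-PBS mouse 5.2). Icosl, the ligand of ICOS, was at 76.2, 86.8 and 125 against 151, 247 and 408 CPM (1.52 ± 0.28). Nlrc5, which drives MHC class I genes, was at 0, 2.12 and 3.06 against 6.19, 15.8 and 21.6 CPM (3.01 ± 0.54), while B2m, the light chain of class I molecules, was at 2187, 2489 and 2939.9 against 2152, 2653 and 3469 CPM (0.11 ± 0.13). The class II chaperone Cd74 was called (2.15 ± 0.32) with overlapping values of 24.2, 36.3 and 96.4 against 28.4, 181 and 311 CPM, the highest CTR-PBS value being that of mouse 1.1.

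Metabolic and metal-handling genes rose in part, with 8 of 26 (median 0.51) and 6 of 14 genes (median 0.68) higher and none lower. The glucose transporter Slc2a1 was at 102, 121 and 142 CPM in CTR-PBS and 305, 541 and 801 CPM in CTR-LPS (2.24 ± 0.31), and Pfkfb3, which speeds glycolysis, at 66.8, 152 and 206 against 516, 598 and 1426 CPM (2.36 ± 0.29). Ldha, lactate dehydrogenase, was called at 1.03 ± 0.13 and missed the threshold without CTR-LPS mouse 8.2 (0.94). The metallothioneins Mt1 and Mt2, which bind zinc, were at 17.35, 19.6 and 66.2 against 93.7, 146 and 326 CPM (2.83 ± 0.32) and at 0, 0.350 and 0.641 against 8.77, 20.17 and 45.1 CPM (6.48 ± 0.54). The zinc and iron importer Slc39a14 was at 6.27, 15.5 and 18.7 against 45.5, 69.3 and 81.0 CPM (2.30 ± 0.32), whereas ferritin light chain, Ftl1, was at 1692, 1809 and 2295 against 1416, 1834 and 2253 CPM (-0.07 ± 0.14). Acod1, which makes itaconate, was not called (1.75 ± 1.15, adjusted p = 0.36), but had 5.47 (adjusted p = 0.00293) without CTR-PBS mouse 1.1, whose 2.70 CPM was the highest of its group.

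Adhesion and matrix genes rose in 13 of 22 and fell in 1 (median 2.69). Icam1, a ligand of leukocyte integrins, was at 166, 224 and 256 CPM in CTR-PBS and 1556, 3172 and 4919.9 CPM in CTR-LPS (3.85 ± 0.27, adjusted p = 2.41e-16). The urokinase receptor Plaur was at 13.7, 23.2 and 28.0 against 117, 232 and 393 CPM (3.47 ± 0.39), while its ligand Plau fell from 5.92, 8.097 and 9.57 to 1.07, 2.70 and 3.51 CPM (-1.65 ± 0.29). Receptor and protease moved in opposite directions, and the groups overlapped in neither. Spp1, osteopontin, was at 0, 0.874 and 2.35 against 4.51, 32.5 and 88.9 CPM (5.13 ± 0.54), and the proteoglycan Sdc4 at 28.4, 33.6 and 41.9 against 164, 465 and 673 CPM (3.56 ± 0.34). In the list of cell death and survival, 9 of 28 genes rose (median 0.29), among them the anti-apoptotic Birc3 at 42.6, 50.8 and 129.5 against 303, 379 and 448 CPM (2.64 ± 0.26) and the death receptor Fas at 1.02, 1.19 and 2.18 against 7.51, 31.7 and 61.5 CPM (4.63 ± 0.52). Ch25h, which forms 25-hydroxycholesterol, was at 0.358, 0.786 and 2.34 against 19.0, 99.5 and 162 CPM (6.88 ± 0.84), 1 of 5 sterol genes of 20 that rose (median 0.35).

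Of 28 genes of phagocytosis and complement 7 rose (median 0.25), of 12 purinergic genes 4 (median 0.16) and of 16 genes of TGF-β signalling 2 (median 0.10), and none fell. Cd300lf, an immunoreceptor for lipids, was at 0, 1.71 and 4.63 CPM in CTR-PBS and 86.3, 131 and 157 CPM in CTR-LPS (6.28 ± 0.52). The complement component C1qb was at 6390.4, 7159 and 8089 against 5319, 8500.3 and 10572 CPM with overlap (0.24 ± 0.11). Adora2a, an adenosine receptor, had no count in CTR-PBS and 0, 1.36 and 6.96 CPM in CTR-LPS, at least 129-fold higher by mean. P2ry6, a UDP receptor linked to phagocytosis, was at 424, 582 and 646 against 949.7, 1122 and 1255 CPM (1.02 ± 0.14) and missed the threshold without CTR-PBS mouse 1.1 (0.96), CTR-PBS mouse 1 of nest 15 (1.00) or CTR-LPS mouse 8.2 (0.99). Bambi, a decoy receptor of TGF-β, was at 0, 0.638 and 1.09 against 8.23, 11.9 and 14.6 CPM (4.21 ± 0.69), and Skil, a repressor of SMAD proteins, at 180.2, 266 and 371 against 713, 991 and 1137 CPM (1.79 ± 0.27). Of 12 heat shock genes, edgeR's quasi-likelihood test and DESeq2 each called 0 (median -0.06), and 2 were higher and 3 lower at an unadjusted p under 0.05. No share over all genes tested is given for that unadjusted p. Of 28 autophagy genes, 1 fell (median -0.12), and 1 rose and 3 fell without mouse 1.1.

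The glucocorticoid receptor and its targets were also called in a large share, with 9 of 14 higher and 1 lower, and a median of 1.77. The counts of called genes were the same without mouse 1.1. Cdkn1a, the cell cycle inhibitor p21, was at 14.1, 20.5 and 28.0 CPM in CTR-PBS and 126, 196 and 298 CPM in CTR-LPS (3.44 ± 0.19). Fkbp5, a co-chaperone that lowers receptor sensitivity, was at 27.2, 56.2 and 65.9 against 160.1, 172 and 218 CPM (1.74 ± 0.24). Tsc22d3, the anti-inflammatory protein GILZ, was at 97.5, 153 and 199.7 against 307, 359 and 584 CPM (1.35 ± 0.24), and the clock gene Per1 at 0, 7.43 and 9.57 against 27.8, 56.6 and 81.2 CPM (3.19 ± 0.58). Every CTR-LPS mouse was above every CTR-PBS mouse in these 4 genes. Sgk1, a kinase that glucocorticoids induce in many tissues, went the other way, from 752, 876 and 1005 to 120.2, 189 and 414 CPM (-2.05 ± 0.19). Levels of the receptor gene Nr3c1 were 134, 157 and 201 against 82.0, 117 and 187 CPM, with overlap and no call (-0.38 ± 0.25, adjusted p = 0.368). Ddit4, an mTOR inhibitor, was called (1.81 ± 0.54) but not without CTR-LPS mouse 8.3 (1.52, adjusted p = 0.0552).

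Of 28 homeostatic genes of microglia, 1 was called lower (3.57%, beside 3.6% of all genes tested) and none higher, with a median of -0.11. The groups did not overlap in 3 of the 28 with LPS lower and in 0 with LPS higher, beside 2.56% and 4.92% of all genes tested. At an adjusted p under 0.05 by edgeR's quasi-likelihood test, whatever the size, 4 were lower and 0 higher. Over all 16696 genes tested, 1035 were lower and 1458 higher by that rule. Neither edgeR's quasi-likelihood test nor DESeq2 called any of the homeostatic genes higher, and 0 were higher and 6 lower at an unadjusted p under 0.05. No share over all genes tested is given for the unadjusted p. The gene that fell was Sall1, the transcriptional regulator that sets microglial identity, from 187, 315 and 361 CPM in CTR-PBS to 71.9, 89.9 and 116 CPM in CTR-LPS (-1.73 ± 0.16, adjusted p = 1.17e-12). P2ry12, the purinergic receptor by which resting microglia sense ATP and ADP, was at 12499.6, 14793 and 16172 against 6942, 8862 and 12226 CPM. Its groups did not overlap, and its adjusted p was 0.00443, but its log2 fold change of -0.62 ± 0.16 was short of the threshold. Gpr34, a lysophosphatidylserine receptor, had -0.75 ± 0.20 and no overlap. Tmem119, a surface protein particular to microglia in the brain, was at 7683, 8419 and 9459 against 4556, 6571 and 8909 CPM (-0.35 ± 0.23, adjusted p = 0.349).

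Among 19 myeloid lineage factors, 7 rose and 2 fell (median 0.23). Beside Sall1, Maf fell from 317, 387 and 435 to 96.4, 128 and 170.3 CPM (-1.58 ± 0.22) without overlap. Runx1, a factor of haematopoietic and activated myeloid cells, was at 85.5, 96.4 and 122 against 355, 451 and 615 CPM (2.17 ± 0.20), and Klf10 at 22.5, 41.9 and 55.5 against 224, 279.6 and 403 CPM (2.77 ± 0.24). Cebpd, an amplifier of cytokine transcription, was at 5.95, 12.4 and 22.6 against 39.7, 92.8 and 187 CPM (2.99 ± 0.47). Its relative Cebpb rose by 3.59 ± 0.71, and by 4.18 without CTR-PBS mouse 1.1. Mef2c, a factor that restrains microglial responses, was at 684, 857 and 924 against 433, 549 and 632 CPM, without overlap and below the size threshold (-0.59 ± 0.10).

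**Figure D4:**
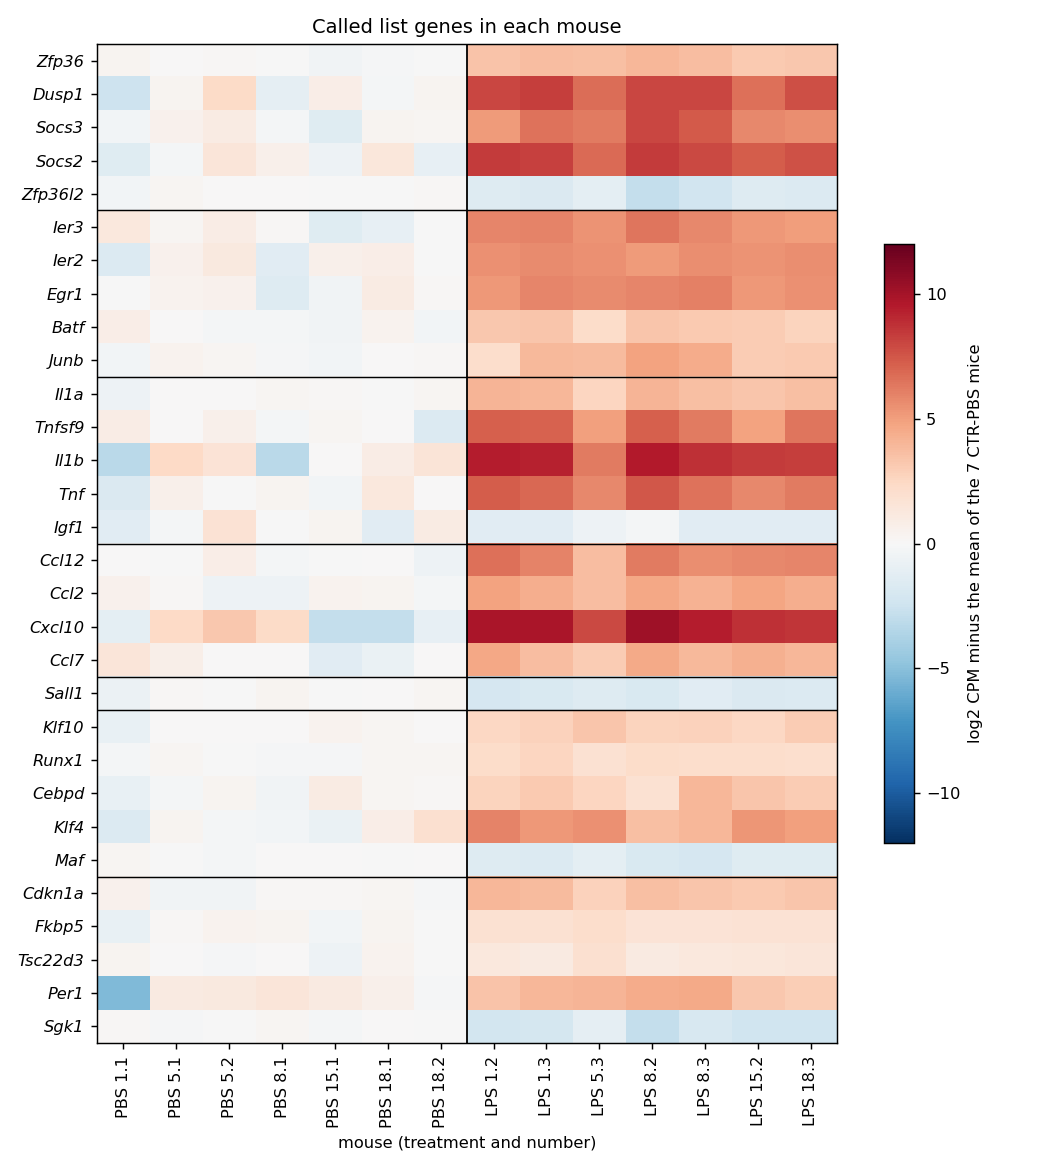
Log2 CPM of each mouse minus the mean of the 7 CTR-PBS mice, as colour, for called genes of 6 lists (from the top, inhibitors, immediate early genes, cytokines, chemokines, lineage factors and glucocorticoid targets, with Sall1 in a row of its own). Red rows fill the 7 CTR-LPS columns, Zfp36l2, Igf1, Sall1, Maf and Sgk1 are blue there, and CTR-LPS mouse 5.3 is paler than its group in Ccl12, Il1a and Il1b.

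The CTR-LPS mice differed in the level of the genes called higher. Over the 1005 called higher genes, the mean log2 CPM was from 3.35 in mouse 5.3 to 4.15 in mouse 8.2, against 1.37 to 1.58 in 6 CTR-PBS mice and 0.28 in CTR-PBS mouse 1.1. Among the 537 of these genes with no overlap and at least 5 CPM after LPS, mouse 5.3 was the lowest CTR-LPS mouse in 207 and mouse 8.2 the highest in 242. Mouse 5.3 was also the highest in 71 of the 537 and mouse 8.2 the lowest in 28. In Ccl12, mouse 5.3 was at 616 CPM and the next lowest mouse at 2321 CPM, and in Il1b the values were 66.4 and 281 CPM. The same mouse had the highest level of the group in Fkbp5 (218 CPM, next 182), Tsc22d3 (584 CPM, next 413) and Sgk1 (414 CPM, next 233). Mouse 5.3 also had the lowest total count of the CTR-LPS mice, 13900212. Genes with a count above 0 numbered 17210 in mouse 5.3 and 19463 in mouse 8.2, within a range of 17173 to 19575 in CTR-LPS. The part of depth, of genes detected and of the higher mitochondrial share of mouse 5.3 in these values was not tested.

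By the same rule, with the 5 CPM required in CTR-PBS, the 12 largest decreases included Gm37124, Gm36839, Gm29395, AC132435.1, Rgs2, Gm4258, Atp2b2, Gm37306, Kcnj2, Zkscan4 and Cbx8, with log2 fold changes from -5.45 to -2.92, and 6 of them are predicted genes without a known role. Rgs2, which shortens G protein signalling (chr1:143875076-143879899), was at 351, 394 and 613 CPM in CTR-PBS and 30.0, 43.7 and 68.0 CPM in CTR-LPS (-3.19 ± 0.25, adjusted p = 9.19e-15). The inward rectifier potassium channel Kcnj2 (chr11:110956981-110967665) was at 12.6, 20.5 and 24.5 against 0, 2.52 and 5.51 CPM (-2.99 ± 0.44), and the plasma membrane calcium pump Atp2b2 (chr6:113720766-114021022) at 6.08, 7.19 and 11.3 against 0, 0.682 and 2.26 CPM (-3.08 ± 0.47). The groups did not overlap in any of these 3 genes. Cbx8, a Polycomb subunit (chr11:118927131-118931795), was at 11.4, 14.6 and 21.7 against 0.4663, 2.09 and 4.08 CPM (-2.92 ± 0.31), and the zinc finger gene Zkscan4 (chr13:21663019-21670493) at 11.6, 13.7 and 33.2 against 0.900, 2.23 and 3.86 CPM (-2.98 ± 0.42). Gm37124 (chr1:137852126-137854117) had -5.45, and -6.51 without CTR-LPS mouse 5.3, and Gm36839 (chr13:35056495-35059458) had -4.87, and -5.81 without CTR-LPS mouse 1.3.

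Lists taken from the study hold example genes that it named as responding to LPS in CTR but not in ELS mice. They are not its full sets. The study named them under enriched gene ontology terms, and for terms with more than 4 genes it gave the 5 with the largest absolute fold change. The genes were thus chosen on these samples, so their counts and medians are not independent evidence of direction or size. In the list of 12 genes higher after LPS, 11 were called higher (median log2 fold change 5.15), but 9 of the 12 had groups that overlapped. Among the 3 without overlap were Zbtb16, a zinc finger factor (0, 0.0713 and 0.715 against 4.00, 7.07 and 14.2 CPM), and Plet1 (0, 0 and 0.195 against 2.58, 4.37 and 9.99 CPM), while fibronectin, Fn1 (0, 0 and 0.143 against 0, 0.471 and 2.58 CPM), overlapped. In the list of 13 genes lower after LPS, 9 were called (median -2.37), and 5 without mouse 1.1. Several were named by the study under a term for glycosaminoglycan synthesis, so their shared role in sulfated sugar chains follows from that choice. Of these, the galactosyltransferase B4galt4 was at 107, 123 and 147 against 51.0, 58.18 and 77.9 CPM (-1.102 ± 0.16). The sulfotransferase Ndst2 was at 8.55, 16.1 and 24.4 against 4.32, 6.39 and 8.3004 CPM (-1.27 ± 0.27). Hs2st1 (-1.203) was not called without CTR-PBS mouse 1.1 (-1.04) or CTR-LPS mouse 8.2 (-1.05), and Pxylp1, whose reads came mostly from mouse 1.1, moved from -4.73 to -0.05 without it, to -6.59 without CTR-LPS mouse 8.2, and was not called without any 1 of 3 other CTR-LPS mice. Over 30 genes of glycosaminoglycan synthesis, 2 rose and 4 fell (median -0.21), and of 26 genes of homologous recombination 1 rose and 2 fell (median -0.12), Palb2 (-1.56 ± 0.24) and Atm (-1.32 ± 0.29). The glycosaminoglycan list holds genes that the study named, such as Pxylp1, so its count of lower genes is not independent of the study's choice.

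The sorted cells carried microglial RNA in both groups, and markers of other cells were low. The summed level of the 10 microglial markers averaged 82755 CPM with an SD of 2459 in the 7 CTR-PBS mice, and 74692 CPM with an SD of 4050 in the 7 CTR-LPS mice (two-sided exact permutation test, p = 0.00175, and 0.00962 adjusted over the 11 marker lists). Astrocyte markers were at 303 to 503 CPM in CTR-PBS and 486 to 619 CPM in CTR-LPS (p = 0.00117, adjusted 0.00962, exact permutation test). Nearly all of this sum was the glutamate transporter Slc1a3, at 296, 323 and 503 against 477, 571 and 609 CPM (0.63 ± 0.16, not called). Endothelial and mural markers were at 39.4 to 71.1 and at 58.6 to 92.7 CPM (p = 0.00641, adjusted 0.0235, exact permutation test), and of their 10 tested genes only Kdr was called, at 0, 5.76 and 8.52 against 15.15, 22.3 and 44.7 CPM (2.28 ± 0.67). Ly6c2 and Ear2 of monocytes, Retnlg, Ly6g, Ltf and Stfa2l1 of neutrophils, and Cd3g and Ncr1 of lymphocytes had no count in any of the 14 mice.

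Summed monocyte markers ranged from 0.712 to 11.48 CPM in CTR-PBS and from 3.49 to 9.90 CPM in CTR-LPS (exact permutation test, p = 0.343), and neutrophil markers reached at most 1.84 CPM (p = 0.739, exact). Border macrophage markers were at 156 to 203 CPM (median 175) in CTR-PBS and 96.7 to 219 CPM (median 120) in CTR-LPS (p = 0.0583, exact). The highest CTR-LPS value was that of mouse 8.2. The median log2 fold change of the 10 border macrophage genes was -0.38. Only the reductase Cbr2 was called, as higher, at 0, 0 and 0.214 against 0, 0.281 and 0.583 CPM. Neuronal markers were at 2.54 to 12.0 and 5.60 to 17.6 CPM (p = 0.0892, exact) and oligodendrocyte markers at 75.4 to 173 and 124 to 160.2 CPM (p = 0.929, exact). Lymphocyte markers reached 0.953 CPM (p = 0.378, exact) and choroid plexus markers 10.1 CPM (p = 0.0723, exact). Haemoglobin genes were called, with 12.7 CPM of Hbb-bs and 9.01 CPM of Hba-a1 in CTR-LPS mouse 8.3. Without it, their log2 fold changes of 7.23 and 5.297 became 1.93 and 1.197, and neither was called. The call of Hba-a1 was also lost without any 1 of 6 CTR-PBS mice, and its value was 6.73 without the other, mouse 1 of nest 15, as that of Hbb-bs was 8.31 without CTR-PBS mouse 5.2. Near-identical haemoglobin genes share reads, so their split is uncertain. The part of the astrocyte and vessel markers in the called genes was not tested.

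**Figure D5:**
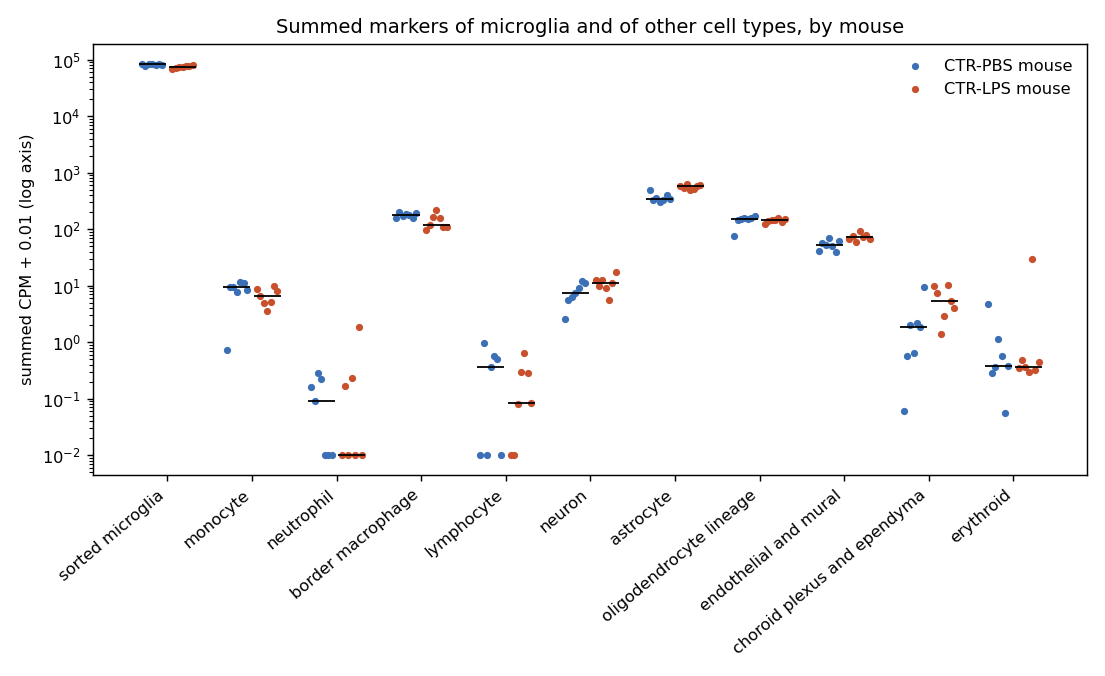
Summed CPM plus 0.01 of 11 marker lists on a log axis, with 1 point per mouse and the median as a line. Microglial markers lie highest, astrocyte markers are next at 303 to 619 CPM, and neutrophil and lymphocyte markers stay below 2 CPM in all 14 mice.

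The same contrast in ELS-reared adults (6 ELS-PBS and 5 ELS-LPS mice, which share no sample with the control adults) called 783 genes higher (4.69%) and 530 lower (3.17%). The 12 largest increases and the 12 largest decreases all had the same sign in ELS. Inflammatory genes had these values side by side, Ccl12 (5.81 ± 0.39 in CTR and 6.17 ± 0.44 in ELS), Il1b (7.80 ± 0.71 and 8.70 ± 0.80) and Nfkbia (3.56 ± 0.19 and 4.07 ± 0.21). In the glucocorticoid list 4 genes were called higher and 1 lower in ELS, with a median of 0.76, beside 9, 1 and 1.77 in CTR. Fkbp5 had 0.86 ± 0.27 in ELS, and the difference between CTR and ELS was 0.88 ± 0.36 with an adjusted p of 0.686 for the interaction. Tsc22d3 had 0.24 ± 0.27 (difference 1.102 ± 0.36, adjusted p = 0.414), Zbtb16 2.07 ± 1.09 (difference 3.32 ± 1.52, adjusted p = 0.788) and Hif3a, a hypoxia-inducible factor, 2.03 ± 1.06 (difference 3.19 ± 1.49, adjusted p = 0.806). Ddit4 had -1.51 ± 0.61 in ELS, with a difference of 3.32 ± 0.82 and an adjusted p of 0.209. All 5 differences given here have the larger value in CTR, and none passed the interaction test. Zbtb16 is on the study's list of genes that rose in CTR only, so its direction follows from a choice made on these samples. Those of the other genes of the glucocorticoid list are not given, so the 5 do not stand for the list.

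Among interferon-stimulated genes, 11 were called higher and none lower in ELS (median 1.04), beside 5 and 1 in CTR (median 0.59). No gene passed the test of the difference between CTR and ELS by edgeR's quasi-likelihood test, where 980 of 16696 genes had an unadjusted p under 0.05 and the smallest adjusted p was 0.127. None of the differences between lists was tested.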

How the data were processed

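Libraries of 14 control adults and, for the shared fit, 36 other mice were sequenced as single libraries with the NEBNext Low Input kit. The authors aligned reads to the mouse genome with STAR and deposited raw gene counts per mouse made with HTSeq 0.11.0. The submitters' processing notes also name bcl2fastq 2.20, cutadapt 2.10 and GRCm39, while the annotation release and the strand setting are not given in the sources used here. Without strand, reads of overlapping genes cannot be told apart. Groups came from the sample titles, and the titles do not say whether a nest number marks a litter.

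Of 53700 genes, 16696 with at least 1 CPM in 3 or more of the 50 mice were tested with edgeR 4.0.16 (R 4.3.3) by the quasi-likelihood test on 6 group means with TMM scaling. The contrast was CTR-LPS minus CTR-PBS, with Benjamini-Hochberg adjustment over all genes tested, an adjusted p threshold of 0.05 and a log2 fold change threshold of 1. Positions are from GENCODE (GRCm39). Folds against a group without counts used 3 counts over that group. The fit was also run on counts simulated from its own dispersions. Those counts held no nest effect and no mouse set apart, so they do not show how the fit handles either. Alternatives were DESeq2 1.42.0, limma 3.58.1, other filters, samples and thresholds, the nest as a block, and each mouse left out. Intervals and floors cover counting error only, and p-values measure the spread between mice. No 2 libraries of a group agreed within sampling noise.

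Members and gene lists were chosen with earlier results of these data known. The genes named are the 12 largest increases and decreases without overlap and with at least 5 CPM, the called members of each list with the 4 smallest adjusted p in each direction and the member with the highest mean, called genes of the study's 2 lists, the sort markers, and the 3 genes of the first rule with the widest range. A further 36 genes were added after their values were seen. Some genes that these rules select are not reported here.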

Additional observations from a re-analysis of the deposited data

Results flagged for a closer look

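In each group of 7 mice the highest or the lowest mouse was set against the others for the levels of the genes named and for 5 library measures. Of 289 groups examined, 38 had a mouse whose distance to its nearest neighbour exceeded Dixon's 95% critical value as a share of the range. That value gives about 1 in 20 for independent values from a normal distribution. The levels here come from the same mice, and some genes were added after their values were seen, so that rate does not apply. CTR-PBS mouse 1.1 was the mouse set apart in 21 cases, and every other mouse in at most 5. No explanation was tested for any of them.

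CTR-PBS mouse 1.1 was the highest of its group for Gm36839 (14.5 CPM), Gm29395 (14.9 CPM), Rgs2 (613 CPM), Atp2b2 (11.3 CPM), Zkscan4 (33.2 CPM), Trim21 (18.17 CPM), Gbp3 (38.5 CPM), Cd74 (96.4 CPM), Mt1 (66.2 CPM), Birc3 (129.5 CPM), Casp4 (43.8 CPM) and Slc1a3 (503 CPM). It was also highest for Cyba (1916 CPM), Swi5 (104 CPM) and Aif1 (809 CPM), and lowest for Il1a (102 CPM), Klf10 (22.5 CPM), Tnfaip3 (3.10 CPM) and Relb (0 CPM). The mouse also had the fewest genes detected, 12854, and 1.83% of its counts in cytosolic ribosomal protein genes.

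CTR-PBS mouse 5.2 was highest for Dusp1 (10.8 CPM), Ccl12 (86.1 CPM) and Ldha (249 CPM), mouse 8.1 was highest for Gbp7 (92.5 CPM) and mouse 1 of nest 18 for Ddit4 (18.0 CPM), and mouse 1 of nest 15 was lowest for Plau (5.92 CPM). In CTR-LPS, mouse 5.3 was highest for Fkbp5 (218 CPM), Tsc22d3 (584 CPM) and Sgk1 (414 CPM) and for the mitochondrial share (1.17% of counts), and lowest for the microglial gene Fcrls (3704 CPM). Mouse 8.2 was highest for Adamts4 (47.5 CPM), Stat2 (134 CPM) and Kdr (44.7 CPM), and mouse 8.3 for the haemoglobin genes Hbb-bs (12.7 CPM) and Hba-a1 (9.01 CPM). Mouse 1.3 had the highest total count, 42231258.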

How the results depend on the processing

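Of 142 named genes that were called, 126 kept their call when any 1 of the 14 mice was left out and 98 in all 28 alternatives that gave a value. Leaving out 1 mouse gave 881 to 997 genes called higher and 517 to 588 called lower. Other tests, filters, scalings and sample sets gave 793 to 1158 higher and 428 to 755 lower. With a log2 fold change threshold of 0.1 the counts were 1458 higher and 1035 lower.

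The main fit did not pair the mice by nest. Over 12086 genes, deviations of CTR-PBS and CTR-LPS mice of a nest correlated at 0.10, -0.05, 0.12, 0.07 and -0.03 for nests 1, 5, 8, 15 and 18. Of the 5 nests, 3 correlated best with their own. These correlations were not tested, and 1 or 2 mice per nest and treatment are too few to tell whether mice of a nest are alike. With the nest as a replicate block in the 14 control adults, 699 genes were called higher and 410 lower, of which 655 and 349 were called in the 50-mouse fit. With counts summed per nest and the replicate block, 410 were called higher and 152 lower, and 29 of 131 named called genes were not called, among them Stat2, Gbp5, Nlrc5, Per1, Spp1, Plau, Kcnj2, Kdr, Relb, Nfkb2, Tnfaip3 and Cxcl2. That fit has 1 value per nest and treatment. The block ended the calls of Ccr1, Trim30a, Parp14, Trim21, Ldha, Insig1 and Nlrp3, and limma-voom with the nest as a random effect those of Il1rn, Trim21, Adora2a, Ldha, Insig1 and Nlrp3.

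Leaving out the 3 mice of nest 1, a choice made after seeing the data, as were the interaction and motif fits without mouse 1.1, gave 837 higher and 421 lower. There Pxylp1 changed sign, to 0.40, and among the genes no longer called were Tlr6, Igf1, Trim30a, Parp14, Trim21, P2ry6, Fcgr4, Ldha, Chsy1, B4galt4 and Nlrp3. The interaction of CTR and ELS called 0 genes by edgeR's quasi-likelihood test in all 3 fits, with 980, 719 and 827 genes at an unadjusted p under 0.05. Without mouse 1.1, the κB consensus was in 12.2% of promoters of called higher genes and 4.39% of called lower genes. Genes near 0 in one group, and libraries of 13900212 to 42231258 counts, limit the precision of the largest fold changes.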

Other observations

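Survival and cell death genes of opposite roles rose side by side. Mcl1, an anti-apoptotic BCL2 relative, was at 73.7, 80.4 and 103 CPM in CTR-PBS (lowest, median and highest mouse) and 282, 354 and 515 CPM in CTR-LPS, a log2 fold change of 2.103 ± 0.23 (SE). Casp4, the mouse caspase-11 that binds intracellular LPS and drives pyroptosis, was at 6.41, 11.202 and 43.8 against 50.1, 58.5 and 108 CPM (2.14 ± 0.32), with the highest CTR-PBS value in mouse 1.1. The groups did not overlap in either gene.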
